A study of Homo sapiens with 4 samples.

Results

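The respiratory chain subunits encoded in the nucleus were examined by complex in FaDu cells. They were taken as the protein-coding rows whose symbols begin with the family names of complexes I, III, IV and V (NDUFA, NDUFB, NDUFC, NDUFS, NDUFV, UQCR, COX4 to COX8, ATP5F1, ATP5M and ATP5P), with SDHA to SDHD of complex II and CYC1 of complex III added. This rule gave 97 of the 60649 gene rows. Of these, 78 are structural subunits made in most tissues, with 36 in complex I, 4 in complex II, 9 in complex III, 12 in complex IV and 17 in complex V. The other rows are 8 complex I assembly factors named NDUFAF, 9 isoforms or close relatives of these subunits, and 2 read-through genes that join a subunit gene to its neighbour. NDUFA4 was counted in complex IV, where its protein is found.

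FaDu is an established human cell line that came from a squamous carcinoma of the hypopharynx, and it was grown with fetal bovine serum. The TINCR-HA-FLAG cells carried a construct for TINCR tagged with HA and FLAG, and their controls carried an empty vector, with 2 RNA sequencing libraries in each group. The labels name 1 cell line only and do not say whether a group was a pool of cells or a clone. Replicates are called technical in the series, so a p-value here reflects the spread between libraries that may come from the same cells.

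Complexes I to IV, in the inner mitochondrial membrane, pass electrons from NADH and succinate to oxygen. Complexes I, III and IV pump protons as they do so, and complex V, the ATP synthase, uses the returning protons to make ATP. Each complex except complex II joins nuclear subunits, which are imported, with subunits made from mitochondrial DNA, so its assembly draws on both genomes.

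TINCR itself had 104 and 133 CPM (counts scaled by library size) in the TINCR-HA-FLAG libraries, against 3.97 and 3.77 CPM with the empty vector. The log2 fold change, here always TINCR-HA-FLAG over empty vector, was 4.93 ± 0.17 (SE, n = 2 libraries each), with an edgeR adjusted p of 7.2e-07. Total counts were 18151424 and 22331602 in the TINCR-HA-FLAG libraries and 17069533 and 17315648 in the empty vector libraries, so that 3 counts came to 0.135 to 0.177 CPM. Transcripts of the mitochondrial genome took 11.4% and 8.66% of the counts with TINCR-HA-FLAG, against 9.43% and 7.58% with the empty vector. Of the 8 epithelial markers, KRT5, KRT17, KRT8, KRT18, TP63 and CDH1 lay at 218.7 CPM or above in every library and EPCAM at 73.0 to 85.1 CPM. KRT14 was detected but lower with TINCR-HA-FLAG, at 45.9 and 64.2 CPM against 108 and 125 CPM with the empty vector (log2 fold change -1.08, edgeR adjusted p = 0.0140). In contrast, PTPRC of leukocytes and PECAM1 of endothelium lay at 0.434 CPM or below. The fibroblast collagen COL1A1 was detected, with 33.6 CPM in both TINCR-HA-FLAG libraries and with 26.9 and 24.01 CPM in the empty vector libraries.

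The promoters of the subunit genes are shown because the genes are known for shared binding motifs of the factors NRF1, YY1 and the ETS family member GABP, which drive the expression of mitochondrial proteins. RefSeq windows (GRCh38.p14) from 250 bases before to 50 after the start were given for 76 of the 97 members and 64 of the 78 structural subunits. NRF1 was searched as GCGCA, any 1 base and GCGC, the ETS family as CCGGAAG and YY1 as AAGATGGC, on both strands, and these motifs did not overlap in the printed windows. From each complex the subunit with the most kinds of motif, and then the highest CPM, is printed 5′ to 3′ on the gene's own strand, with motif matches in capitals. NDUFA3 belongs to complex I, SDHB to complex II, UQCRC1 to complex III, COX4I1 to complex IV and ATP5PO to complex V.
NDUFA3, chr19:54102605-54102904, plus strand: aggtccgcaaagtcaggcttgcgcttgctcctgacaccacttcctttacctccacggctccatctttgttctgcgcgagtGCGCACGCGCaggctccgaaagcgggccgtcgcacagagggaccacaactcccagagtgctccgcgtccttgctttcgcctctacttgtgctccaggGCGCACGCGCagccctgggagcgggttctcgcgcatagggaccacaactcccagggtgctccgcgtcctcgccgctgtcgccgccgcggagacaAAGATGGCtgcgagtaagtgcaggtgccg
SDHB, chr1:17053983-17054282, minus strand: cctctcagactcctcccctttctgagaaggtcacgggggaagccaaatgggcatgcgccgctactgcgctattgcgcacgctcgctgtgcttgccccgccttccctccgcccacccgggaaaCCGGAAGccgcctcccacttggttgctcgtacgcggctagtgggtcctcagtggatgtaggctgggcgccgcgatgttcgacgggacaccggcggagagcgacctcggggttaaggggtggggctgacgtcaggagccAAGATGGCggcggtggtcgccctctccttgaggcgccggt
UQCRC1, chr3:48609597-48609896, minus strand: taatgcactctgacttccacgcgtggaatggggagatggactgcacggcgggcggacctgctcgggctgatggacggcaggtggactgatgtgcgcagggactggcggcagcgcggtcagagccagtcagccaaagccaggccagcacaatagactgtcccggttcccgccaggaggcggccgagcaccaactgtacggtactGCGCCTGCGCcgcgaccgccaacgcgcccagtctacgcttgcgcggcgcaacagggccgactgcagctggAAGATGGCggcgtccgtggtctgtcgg
COX4I1, chr16:85799445-85799744, plus strand: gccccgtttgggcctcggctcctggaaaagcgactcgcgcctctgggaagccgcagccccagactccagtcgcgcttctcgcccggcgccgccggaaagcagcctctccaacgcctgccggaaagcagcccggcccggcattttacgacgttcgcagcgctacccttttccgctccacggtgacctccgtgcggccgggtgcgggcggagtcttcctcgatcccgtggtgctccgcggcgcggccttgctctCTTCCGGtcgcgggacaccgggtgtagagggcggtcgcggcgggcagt
ATP5PO, chr21:33915755-33916054, minus strand: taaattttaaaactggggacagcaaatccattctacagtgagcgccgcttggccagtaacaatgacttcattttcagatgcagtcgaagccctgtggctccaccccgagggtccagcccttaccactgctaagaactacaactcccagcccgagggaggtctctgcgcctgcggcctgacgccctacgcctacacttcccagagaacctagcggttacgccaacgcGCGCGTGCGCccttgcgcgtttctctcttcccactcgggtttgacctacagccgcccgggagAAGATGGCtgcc

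In these windows NDUFA3 had 2 NRF1 matches and 1 YY1 match, UQCRC1 and ATP5PO had 1 of each, SDHB had 1 ETS and 1 YY1 match, and COX4I1 had 1 ETS match. The NRF1 matches of UQCRC1 and ATP5PO and the ETS match of COX4I1 are on the opposite strand, so the capitals there show the reverse complement of the motif. Over the subunit windows, 16 of 64 held the NRF1 motif (25%), against 5.78% of all 35116 promoter windows of the same length. The ETS motif was in 20 of 64 (31.3%), against 10.3% of all windows. The YY1 motif was in 11 of 64 (17.2%), against 2.89% of all windows. In complex IV, 0 of 10 windows held the NRF1 or YY1 letters and 5 held the ETS letters, while in complex III 4 of 7 held the NRF1 motif. A match describes the letters and not a bound site. The median log2 fold change was -0.03 for subunits with the NRF1 motif and -0.06 for those without it.

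All 78 structural subunits were expressed highly enough to be tested, and no complex was set apart by a called change. Of the 97 members, 91 were tested and 0 were called at an edgeR adjusted p under 0.05 (Benjamini-Hochberg over 18771 genes), where 0.453% of all genes were called higher and 0.0959% lower, 0.549% in all. DESeq2 also called 0 members, with 1.13% of all genes called. At an unadjusted p under 0.05 there were 6 members of 91, where 10.2% of all genes passed, and these 6 were lower with TINCR-HA-FLAG, where 4.31% of all genes were lower and 5.88% higher. Since RNA was pooled over many cells, a lower level may come from fewer cells with a transcript or less of it per cell, and these cannot be told apart.

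Differences between the groups were small over the subunits. The log2 fold changes of the 78 subunits ran from -0.61 for SDHA to 0.39 for NDUFC2, and 61 were under 0.2 in size. Their median was -0.05, with 28 positive and 50 negative, against a median of 0.00 over all genes tested, where 9518 were positive and 9253 negative. Both TINCR-HA-FLAG libraries lay above both empty vector libraries for 4 subunits (5.13%), where this held for 21.7% of all genes. Both lay below for 13 subunits (16.7%), where this held for 17.9% of all genes. In all, the groups did not overlap for 17 of 78 subunits, against 39.6% of all genes.

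The 5 complexes had similar medians. The median log2 fold change was -0.05 in complex I (24 of 36 subunits negative), -0.09 in complex II (3 of 4), -0.08 in complex III (7 of 9), -0.05 in complex IV (7 of 12) and -0.03 in complex V (9 of 17). None of these medians was tested, because genes are not replicates of a condition. With 2 libraries against 2, the smallest two-sided p that an exact permutation test allows is 0.333.

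**Figure D1:**
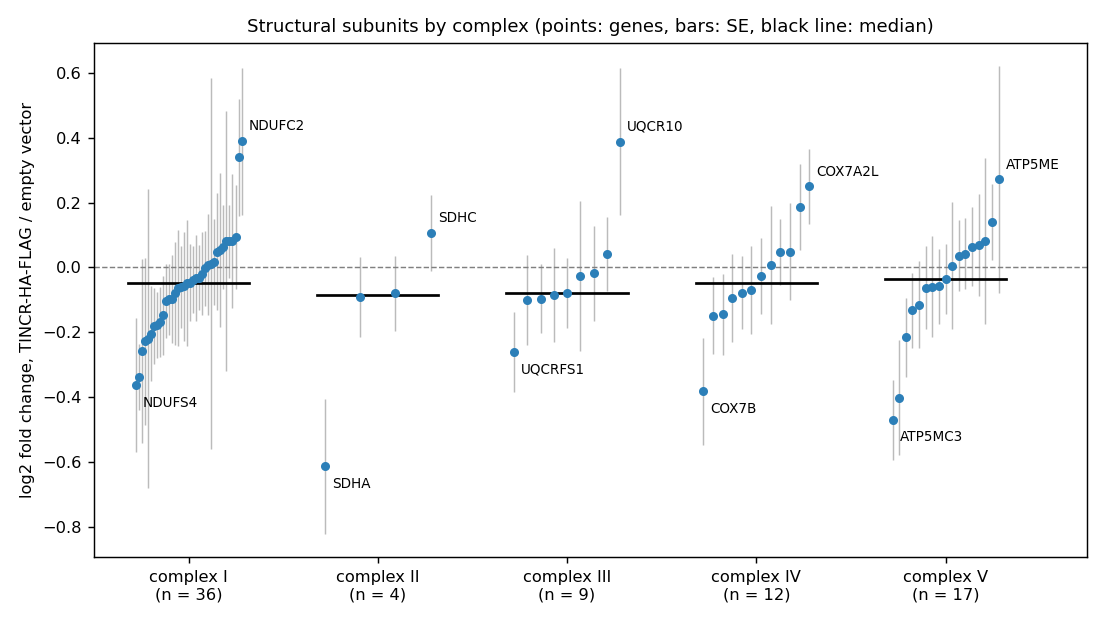
Log2 fold change (TINCR-HA-FLAG over empty vector) of each structural subunit, sorted within each complex, with its SE derived from the edgeR F statistic (2 libraries per group) and the median of each complex as a black line. The medians lie between -0.09 and -0.03, and SDHA of complex II at -0.61 is the lowest point.

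By the median over subunits, libraries of a group differed from each other in every complex. For each complex, the median deviation of its subunits from their own mean over the 4 libraries was taken on the log2 scale. In complex IV it was -0.14 and 0.06 in the TINCR-HA-FLAG libraries and -0.06 and 0.09 in the empty vector libraries. In complex V it was -0.13 and 0.07 with TINCR-HA-FLAG and -0.02 and 0.09 with the empty vector. In complex III it was -0.13 and 0.04 with TINCR-HA-FLAG and -0.03 and 0.10 with the empty vector. By this measure replicate 1 lay below replicate 2 in each group in every complex. TINCR-HA-FLAG replicate 1 was lowest in complexes I, III, IV and V, and empty vector replicate 1 in complex II. In complex I the values were -0.08 and 0.01 with TINCR-HA-FLAG and 0.01 and 0.10 with the empty vector. Complex II, with only 4 genes, had -0.02 and 0.02 with TINCR-HA-FLAG and -0.05 and 0.14 with the empty vector. The mean over subunits gave another picture in complexes I and II. In complex I the mean log2 CPM was 4.57 in both TINCR-HA-FLAG libraries and 4.61 and 4.62 in the empty vector libraries. By this mean the replicates were nearly equal and the groups differed by -0.05. Each subunit counts alike in it, also low transcripts that were higher in replicate 1. Among these, NDUFA13 had 3.20 and 1.80 CPM with TINCR-HA-FLAG and 2.86 and 1.77 CPM with the empty vector. The summed CPM of complex I overlapped, at 1676 and 1835.5 with TINCR-HA-FLAG and 1799 and 1885 with the empty vector. In complex II the mean log2 CPM was 5.43 and 5.37 with TINCR-HA-FLAG and 5.53 and 5.62 with the empty vector, without overlap. Of its 4 subunits, only SDHA had groups that did not overlap. The summed CPM of complex II did overlap, at 217 and 231 with TINCR-HA-FLAG and 214 and 244 with the empty vector.

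The subunits encoded by mitochondrial DNA ran the other way between replicates. For the 3 that belong to complex IV the median deviation was 0.31 and -0.06 with TINCR-HA-FLAG and 0.00 and -0.28 with the empty vector. Log2 fold changes were positive for all 13 mitochondrially encoded subunits, at a median of 0.24, and none was called by edgeR. Replicate 1 of each group also had the larger mitochondrial share of counts, and the part of that share in the deviations of the nuclear subunits was not tested. With mitochondrially encoded genes left out before scaling, the medians of complexes I to V were -0.05, -0.09, -0.08, -0.05 and -0.04.

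**Figure D2:**
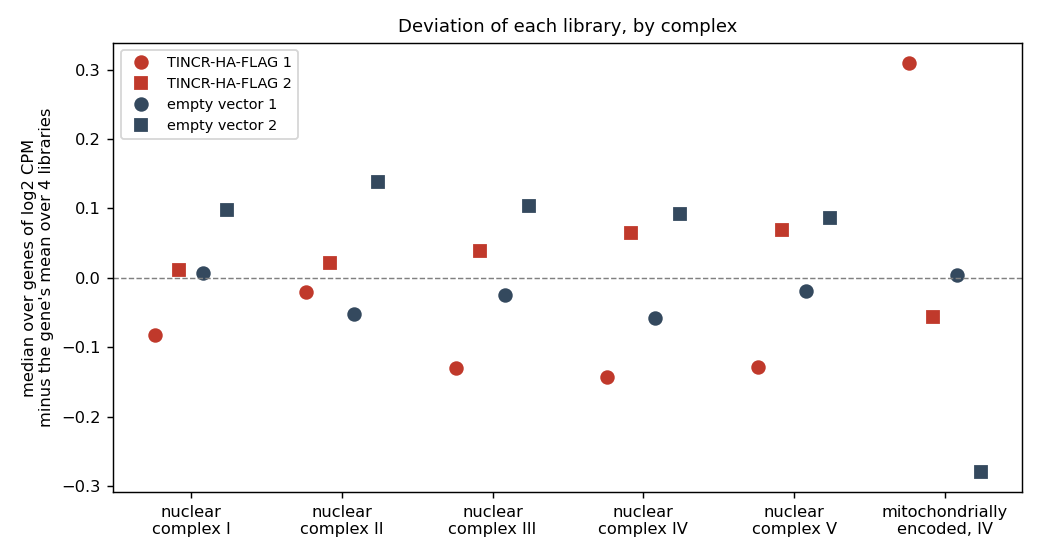
Median deviation of each library from the 4-library mean (log2 CPM, y axis) for the nuclear subunits of each complex and for the mitochondrially encoded subunits of complex IV, with 1 point per library. In each nuclear complex replicate 1 (circles) lies below replicate 2 (squares) in both groups, and in the mitochondrially encoded subunits it lies above.

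The difference between replicates exceeded the difference between groups in at least 1 group for 67 of 78 subunits (85.9%), against 70.9% of all genes. The median size of the group difference was 0.08 log2 units, while replicate 1 and replicate 2 differed by a median size of 0.21 with TINCR-HA-FLAG and of 0.17 with the empty vector. The replicate difference had the same sign in both groups for 65 of 78 subunits (83.3%), against 68.3% of all genes. Most of these subunits were lower in replicate 1, with a median difference of -0.16 with TINCR-HA-FLAG and -0.13 with the empty vector.

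**Figure D3:**
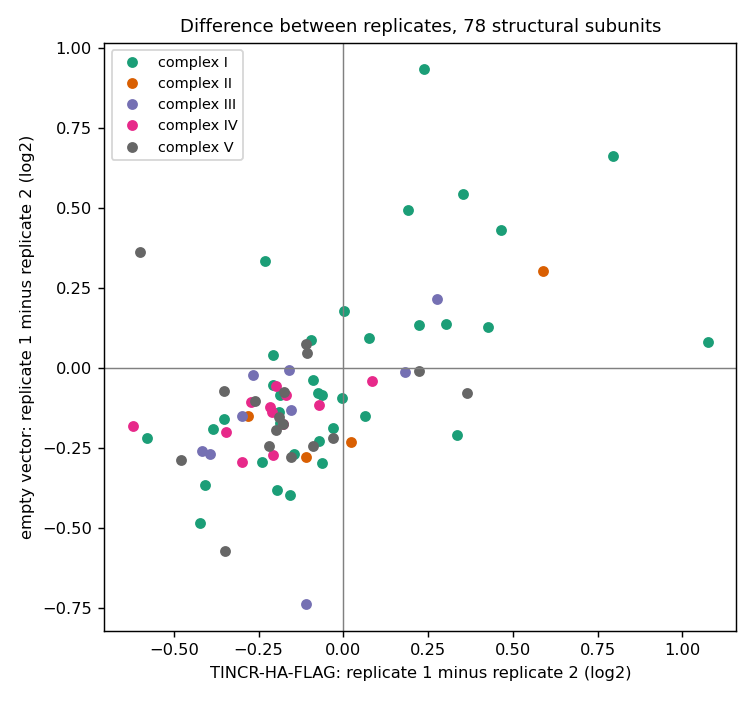
Replicate 1 minus replicate 2 (log2 CPM) in the TINCR-HA-FLAG group (x axis) and in the empty vector group (y axis), with 1 point per structural subunit, coloured by complex. For 65 of 78 subunits both differences have the same sign, mostly at the lower left.

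Complex I has a matrix arm, made of the N module that oxidises NADH and the Q module that reduces ubiquinone, and a membrane arm built from the modules around its mitochondrially encoded ND subunits. In the N module 8 of 9 subunits had a negative log2 fold change, with a median of -0.18, none called. The Q module had a median of -0.10. The modules named for ND1, ND2, ND4 and ND5 had medians of 0.06, -0.03, 0.01 and -0.08. The 7 core subunits, most of which carry the flavin, an iron-sulphur cluster or part of the quinone site, had a median of -0.15 with 6 negative, and the 29 accessory subunits had a median of -0.04 with 18 negative.

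NDUFV1, which binds the flavin that takes electrons from NADH, had the highest level of complex I per length (228 RPKM, its CPM per kilobase of mRNA), with 338 and 389.6 CPM in TINCR-HA-FLAG cells and 369 and 359 CPM with the empty vector. The groups overlapped, and the log2 fold change was 0.00 ± 0.12 (SE). NDUFS1, the largest iron-sulphur subunit, had 139.9 and 140.3 CPM with TINCR-HA-FLAG, against 153 and 164 CPM with the empty vector. The groups did not overlap, but the log2 fold change of -0.18 ± 0.10 did not pass the test (edgeR adjusted p = 0.624).

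Other core subunits were closer to zero or were measured less well. NDUFS3 of the Q module had a log2 fold change of -0.15 and NDUFS8, which carries iron-sulphur clusters, had -0.10. NDUFS7, which holds the last cluster before the quinone, had 5.21 and 6.13 CPM with TINCR-HA-FLAG and 6.13 and 4.84 CPM with the empty vector, and its groups overlapped. NDUFV2, the partner of NDUFV1, had only 3.91 and 2.88 CPM with TINCR-HA-FLAG and 4.203 and 3.83 CPM with the empty vector, with an SE of 0.28 on a log2 fold change of -0.26.

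Among the accessory subunits, NDUFA10 of the ND2 module (chr2:239892450-240025402, minus strand) had the lowest unadjusted p. It had 96.7 and 91.6 CPM in TINCR-HA-FLAG cells, against 122.9 and 115 CPM with the empty vector. The groups were clear of each other, but the log2 fold change of -0.34 ± 0.10 had an unadjusted p of 0.00756 and an edgeR adjusted p of 0.255. Of the 14 other tested genes within 1 Mb of it, 12 had a negative log2 fold change, with a median of -0.25 and none called, and the part of position in the NDUFA10 value was not tested.

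The extremes of complex I were low transcripts. NDUFC2, a small membrane arm subunit, had 7.11 and 6.08 CPM with TINCR-HA-FLAG, against 5.25 and 4.78 CPM with the empty vector. Its log2 fold change of 0.39 ± 0.23, the highest of the 78, was not called (edgeR adjusted p = 0.632). NDUFS4, an accessory subunit of the N module, was at the other end, with 7.93 and 6.27 CPM with TINCR-HA-FLAG, against 8.41 and 9.73 CPM with the empty vector (log2 fold change -0.36 ± 0.21, edgeR adjusted p = 0.626). The groups did not overlap for either gene. NDUFA5 of the Q module had 45.1 and 32.6 CPM with TINCR-HA-FLAG and 35.2 and 26.1 CPM with the empty vector, so that replicate 1 was higher in both groups and the groups overlapped.

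The 8 NDUFAF rows encode assembly factors that leave the finished complex I. Their median log2 fold change was -0.13, with 6 of 8 negative and none called. NDUFAF8, a small cysteine-rich factor that works with NDUFAF5, had 14.7 and 11.8 CPM in TINCR-HA-FLAG cells, against 19.8 and 21.6 CPM with the empty vector. The groups were well apart, and the log2 fold change of -0.65 ± 0.16 had the lowest adjusted p of the 91 members tested, 0.139 by edgeR. NDUFAF5 itself had 6.73 and 8.20 CPM with TINCR-HA-FLAG and 7.997 and 6.78 CPM with the empty vector, with overlapping groups. Of the 70 other tested genes within 1 Mb of NDUFAF8 on chromosome 17, 55 had a negative log2 fold change, with a median of -0.19.

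Complex II, succinate dehydrogenase, links the tricarboxylic acid cycle to the chain. It has a catalytic head of SDHA, the flavoprotein that oxidises succinate, and SDHB, the iron-sulphur protein, on the membrane anchors SDHC and SDHD. SDHA (chr5:218241-256700, plus strand) had 13.2 and 8.74 CPM in TINCR-HA-FLAG cells, against 18.4 and 14.9 CPM with the empty vector. Both TINCR-HA-FLAG libraries were below both others, and the log2 fold change of -0.61 ± 0.21 was the lowest of the 78 subunits, with an unadjusted p of 0.0145 and an edgeR adjusted p of 0.329. With 1 library left out it ran from -0.92 without TINCR-HA-FLAG replicate 1, where it was called (edgeR adjusted p = 0.00708), to -0.34 without TINCR-HA-FLAG replicate 2, where it was not (edgeR adjusted p = 0.548).

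The other subunits of complex II did not share that size of difference. SDHB had 51.0 and 62.0 CPM with TINCR-HA-FLAG and 57.2 and 63.4 CPM with the empty vector, and the log2 fold change was -0.09 ± 0.12. SDHC had 104 and 112 CPM with TINCR-HA-FLAG and 90.8 and 110.0 CPM with the empty vector, a log2 fold change of 0.11 ± 0.12. SDHD had 49.3 and 48.5 CPM with TINCR-HA-FLAG and 47.5 and 55.7 CPM with the empty vector, a log2 fold change of -0.08 ± 0.12. The groups overlapped for SDHB, SDHC and SDHD. SDHA lies near the end of the short arm of chromosome 5, where 17 of the 19 other tested genes within 1 Mb had a negative log2 fold change, with a median of -0.30 and 1 called. The part of position in the SDHA value was not tested. SDHA also shares 22.3% of the 50-base stretches of its mRNA with other genes, most with SDHAP3, so some of its reads are uncertain.

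Complex III passes electrons from ubiquinol to cytochrome c. UQCRFS1, the Rieske iron-sulphur protein, had 80.6 and 99.3 CPM in TINCR-HA-FLAG cells, against 102 and 113 CPM with the empty vector. The groups were separated by less than the distance between replicates, and the log2 fold change of -0.26 ± 0.12 was not called (edgeR adjusted p = 0.524). CYC1, cytochrome c1, had 117 and 156 CPM with TINCR-HA-FLAG and 126 and 150.9 CPM with the empty vector, with overlapping groups and a log2 fold change of -0.02 ± 0.15. The core proteins UQCRC1 and UQCRC2 had log2 fold changes of -0.08 and -0.10, and UQCRC2 had 190.5 and 213 CPM with TINCR-HA-FLAG and 215 and 216 CPM with the empty vector.

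Among the small subunits of complex III, UQCR10 had the highest log2 fold change, 0.39 ± 0.23 (edgeR adjusted p = 0.634). Its values were 12.1 and 13.0 CPM with TINCR-HA-FLAG, against 7.18 and 12.0 CPM with the empty vector, and empty vector replicate 1 stood below the other 3 libraries. Without that library the log2 fold change was 0.02. UQCRH, the hinge protein that sits beside cytochrome c1, had 135 and 150.8 CPM with TINCR-HA-FLAG and 144 and 158 CPM with the empty vector, and the groups overlapped.

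UQCRH has a near-identical copy, UQCRHL, which is also on chromosome 1. Their coding sequences (GENCODE 29, GRCh38, 273 bases without the stop) differ at 4 positions, G158A, G167A, G231A and G233A, counted from 1 at the A of the start codon with the UQCRH base first, an identity of 98.5%. Bases 151 to 240 hold all 4 differences and are shown with the differing bases in capitals, because within this stretch only these bases tell the copies apart.
UQCRH: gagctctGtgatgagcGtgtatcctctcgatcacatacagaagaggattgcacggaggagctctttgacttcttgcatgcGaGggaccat
UQCRHL: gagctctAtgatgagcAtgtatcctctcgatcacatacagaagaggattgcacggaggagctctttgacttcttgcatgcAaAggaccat

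The UQCRHL row had 7.17 and 10.7 CPM with TINCR-HA-FLAG and 7.997 and 9.38 CPM with the empty vector. Per length of mRNA, UQCRH was 60.2-fold above UQCRHL. Of the 50-base stretches of the UQCRH mRNA, 29.4% occur in UQCRHL too, so the split of reads between both rows is uncertain.

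Complex IV, cytochrome c oxidase, reduces oxygen, with a mitochondrially encoded catalytic core and a shell of nuclear subunits. COX4I1, which carries a regulatory ATP site, had 118 and 137 CPM in TINCR-HA-FLAG cells and 129 and 141 CPM with the empty vector, a log2 fold change of -0.08 ± 0.11 with overlapping groups. COX5A and COX5B, which lie on the matrix side, had log2 fold changes of -0.09 and -0.15. COX6B1, on the intermembrane side, had 114 and 145 CPM with TINCR-HA-FLAG and 106 and 122 CPM with the empty vector, a log2 fold change of 0.19 ± 0.13 (edgeR adjusted p = 0.716).

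COX7B and COX7A2L were the extremes of complex IV. COX7B, a small membrane subunit needed for assembly, had 10.4 and 12.6 CPM in TINCR-HA-FLAG cells, against 14.5 and 15.6 CPM with the empty vector. The groups did not overlap, and the log2 fold change of -0.38 ± 0.17 had an unadjusted p of 0.0423 and an edgeR adjusted p of 0.467. COX7A2L, which joins complexes III and IV in supercomplexes, had 40.8 and 45.9 CPM with TINCR-HA-FLAG, against 35.4 and 37.6 CPM with the empty vector. Both TINCR-HA-FLAG libraries were above both others, and the log2 fold change of 0.25 ± 0.12 was not called (edgeR adjusted p = 0.513).

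Several complex IV subunits have isoforms of other tissues, and FaDu cells held mainly the common form. COX4I2, known from lung and hypoxia, COX6A2 of heart and skeletal muscle, and COX7B2 had 0 counts in all 4 libraries, where 3 counts in a library would be 0.135 to 0.177 CPM. Set at 3 counts per library for the isoform, COX4I1 was at least 791-fold above COX4I2 per length, COX6A1 at least 99.4-fold above COX6A2 and COX7B at least 20.4-fold above COX7B2. COX8C, known from testis, had 1 count in empty vector replicate 2 and 0 in the others, while COX8A averaged 68.9 RPKM.

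The isoforms that were detected were far below their partners. COX6B2 of testis had 0.474 ± 0.109 RPKM against 182.9 ± 25.3 RPKM for COX6B1, a 385.8-fold ratio of levels (SD over 4 libraries). COX7A1 of heart and muscle had 1.26 ± 0.57 RPKM against 72.2 ± 5.2 RPKM for COX7A2, a 57.4-fold ratio. NDUFA4L2, known as a hypoxia-induced relative of NDUFA4, had 1.42 ± 0.27 RPKM against 51.5 ± 2.2 RPKM for NDUFA4, a 36.4-fold ratio. Within these isoforms the groups overlapped in each case, as for COX7A1 with 1.36 and 0.721 CPM with TINCR-HA-FLAG and 1.28 and 0.472 CPM with the empty vector. ATP5MGL, a relative of the membrane subunit gene ATP5MG, had 0.814 and 0.135 CPM with TINCR-HA-FLAG and 0.642 and 0.059 CPM with the empty vector. The read-through gene of NDUFC2 had 0 counts, and that of ATP5MF had 0.489 and 0.0902 CPM with TINCR-HA-FLAG and 0.175 and 0.059 CPM with the empty vector.

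Complex V consists of the catalytic F1 head, the rotating c-ring, the peripheral stalk and further membrane subunits. For the F1 subunits the median log2 fold change was -0.13, 4 of 5 being negative, while the c-ring, the peripheral stalk and the membrane subunits had medians of 0.06, 0.02 and 0.01. ATP5F1B, the catalytic beta subunit, had 375 and 424 CPM in TINCR-HA-FLAG cells, against 436 and 492 CPM with the empty vector. Its groups did not overlap, without a call (log2 fold change -0.22 ± 0.12, edgeR adjusted p = 0.616). ATP5F1A, the alpha subunit, had 236.7 and 270.04 CPM with TINCR-HA-FLAG and 263 and 292 CPM with the empty vector, and its groups overlapped. ATP5F1C, the gamma subunit of the rotor, had a log2 fold change of 0.04.

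ATP5F1D, the delta subunit of the central stalk, had 50.7 and 64.6 CPM in TINCR-HA-FLAG cells and 61.4 and 91.2 CPM with the empty vector. The groups overlapped, with replicate 1 below replicate 2 in each, and the log2 fold change of -0.40 ± 0.18 had an unadjusted p of 0.0469 and an edgeR adjusted p of 0.483. ATP5ME, the e subunit of the membrane part, had 2.23 and 3.43 CPM with TINCR-HA-FLAG and 2.69 and 2.06 CPM with the empty vector. It had the highest log2 fold change of complex V, 0.27, but with an SE of 0.35 and overlapping groups.

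The c-ring is built from 1 protein encoded by the genes ATP5MC1, ATP5MC2 and ATP5MC3, whose mature products are identical. ATP5MC3 (chr2:175176258-175184607, minus strand) had 72.4 and 84.3 CPM in TINCR-HA-FLAG cells, against 99.4 and 118 CPM with the empty vector. The groups did not overlap, and the log2 fold change of -0.47 ± 0.12 had the lowest adjusted p of the structural subunits, 0.167 by edgeR. It was called when empty vector replicate 1 was left out (-0.63, edgeR adjusted p = 0.0349). Leaving out TINCR-HA-FLAG replicate 2 also gave a call (-0.59, edgeR adjusted p = 0.00848). It was not called with TINCR-HA-FLAG replicate 1 left out (-0.36, edgeR adjusted p = 0.313) or with empty vector replicate 2 left out (-0.34, edgeR adjusted p = 0.656). ATP5MC1 had 77.1 and 85.9 CPM with TINCR-HA-FLAG and 70.5 and 85.5 CPM with the empty vector, and ATP5MC2 had 105 and 147 CPM with TINCR-HA-FLAG and 108 and 132 CPM with the empty vector. Their log2 fold changes of 0.06 and 0.07 were positive, and the difference between the 3 genes was not tested. Of the 20 other tested genes within 1 Mb of ATP5MC3, 13 had a negative log2 fold change, with a median of -0.03.

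**Figure D4:**
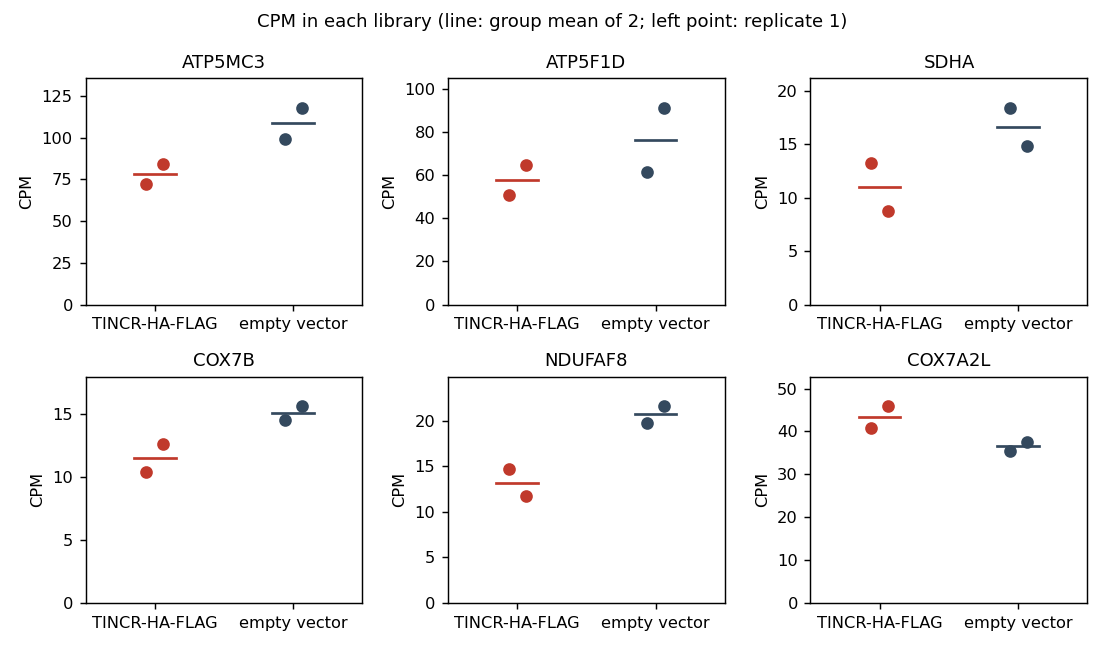
CPM in each library for the members with an unadjusted p under 0.05 other than NDUFA10, and for COX7A2L, with TINCR-HA-FLAG at the left, replicate 1 as the left point of each pair and the group mean as a line (n = 2). None of these genes was called; the groups of ATP5F1D overlap, and COX7A2L is the one gene shown that is higher with TINCR-HA-FLAG.

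Levels per length differed widely within each complex, although its subunits are joined in fixed numbers in the protein. The levels are RPKM, for 1 coding transcript per gene, as the mean of 4 libraries. In complex I they ran from 1.23 ± 0.37 RPKM (SD, n = 4) for NDUFA7 to 228 ± 14 RPKM for NDUFV1, a 185.5-fold range around a median of 22.5 RPKM. In complex II the level ran from 5.77 RPKM for SDHA to 50.7 RPKM for SDHB, with a median of 21.3 RPKM. In complex III it ran from 4.36 RPKM for UQCR11 to 243 RPKM for UQCRH, with a median of 28.4 RPKM. In complex IV it ran from 5.38 RPKM for COX7B to 185.5 RPKM for COX4I1, with a median of 52.4 RPKM, and in complex V from 3.85 RPKM for ATP5PF to 235 RPKM for ATP5F1B, with a median of 45.6 RPKM. The choice of transcript enters these levels, since a long 3′ end lowers RPKM. SDHC, counted on an mRNA of 13566 bases, had 7.68 RPKM although its CPM was above that of SDHB.

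Many of the lowest levels belonged to genes that share exons with another row of the table. For 7 subunits at least 40% of the mRNA is covered by exons of another gene on the same strand, a limit chosen after the values were seen. These are NDUFA7, NDUFB8, NDUFA13, NDUFV2, NDUFA11, ATP5PO and ATP5MF. Their median level was 3.99 RPKM, and 4 of 7 lay under 10 RPKM, while NDUFA11 had 23.4 RPKM, ATP5PO 15.6 RPKM and ATP5MF 108 RPKM. The 25 subunits with no overlap and no shared 50-base stretch had a median of 57.9 RPKM, from 12.0 RPKM upwards, so none of them lay under 10 RPKM, where 17 of all 78 did. The length of the mRNA was not matched between these sets. NDUFV3, left out of the 25 for shared stretches alone, had 9.90 RPKM on an mRNA of 4676 bases. Low levels also occurred without exon overlap, as for COX7B at 5.38 RPKM and SDHA at 5.77 RPKM, which share some 50-base stretches. NDUFA9 had 1.65 RPKM with 11.8% of its mRNA overlapped on the same strand, counted on an mRNA of 8363 bases. NDUFA7 had 75.9% of its mRNA covered by AC010323.1, and had 0.814 and 0.676 CPM in TINCR-HA-FLAG cells and 0.992 and 0.472 CPM with the empty vector. NDUFV2, a core subunit, had 82.9% covered by AP005263.1, and NDUFB8 had 71.7% covered by AL133352.1. Whether ambiguous reads were dropped in counting is not given in the sources used here, and the part of overlap in these levels was not tested.

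**Figure D5:**
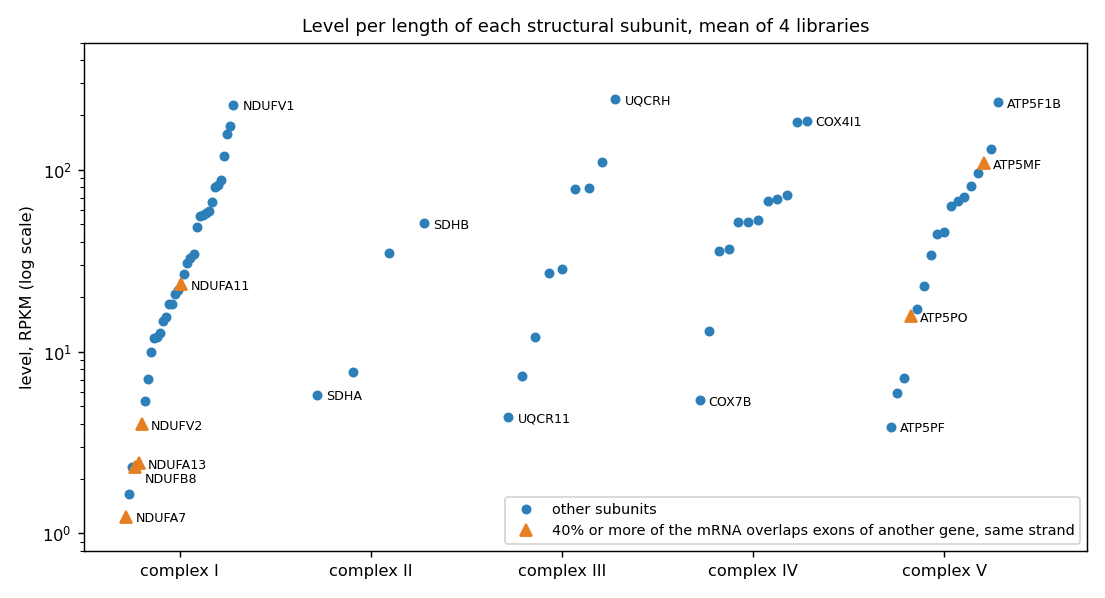
Level of each structural subunit in RPKM (log scale, mean of 4 libraries), sorted within each complex, with triangles for the 7 subunits whose mRNA is covered to at least 40% by exons of another gene on the same strand. The lowest point, NDUFA7 at 1.23 RPKM, is such a gene, while ATP5MF at 108 RPKM shows that not all of them are low.

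None of the assembly factors of complexes I to V outside the rule was called by edgeR, with median log2 fold changes of -0.02 (11 tested), 0.08 (4 tested), 0.04 (6 tested), -0.02 (26 tested) and 0.10 (4 tested) in the order of the complexes. BCS1L, which inserts the Rieske protein into complex III, had 26.8 and 30.8 CPM in TINCR-HA-FLAG cells, against 42.1 and 35.9 CPM with the empty vector (log2 fold change -0.43 ± 0.13, edgeR adjusted p = 0.255). CMC1, a complex IV assembly factor, had 17.8 and 18.8 CPM with TINCR-HA-FLAG, against 13.5 and 13.2 CPM with the empty vector (log2 fold change 0.45 ± 0.14, edgeR adjusted p = 0.289). Neither gene's groups overlapped. Of the 19 tested carriers and partners of the chain, such as cytochrome c and the enzymes of coenzyme Q synthesis, 0 were called, with a median of -0.05. Of the 16 tested regulators of mitochondrial transcription and biogenesis, 0 were called, with a median of 0.03. At an unadjusted edgeR p under 0.05, 1 was higher and 2 were lower. Over all genes, 5.88% were higher and 4.31% lower at that p. The higher regulator was POLG, the mitochondrial DNA polymerase, with 193 and 192 CPM with TINCR-HA-FLAG, against 157 and 142 CPM with the empty vector (log2 fold change 0.36 ± 0.10, edgeR adjusted p = 0.232). The lower regulators were TWNK and PPRC1, with log2 fold changes of -0.43 and -0.25. TWNK had 19.3 and 23.0 CPM with TINCR-HA-FLAG, against 28.2 and 28.8 CPM with the empty vector (edgeR adjusted p = 0.276).

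Among 14 tested enzymes of the tricarboxylic acid cycle 1 was called, and it was higher, where 0.453% of all genes were called higher and 0.549% in either direction. IDH2, the mitochondrial NADP-dependent isocitrate dehydrogenase, had 95.5 and 120.6 CPM in TINCR-HA-FLAG cells, against 46.4 and 52.7 CPM with the empty vector. It rose by a log2 fold change of 1.13 ± 0.13 (edgeR adjusted p = 0.00473), with both TINCR-HA-FLAG libraries above both others. It lies on chromosome 15. Genes near IDH2 were not counted, and the part of position in its value was not tested. Over the list, 12 of 14 enzymes had a negative log2 fold change, and the median was -0.09.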

How the data were processed

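Per the labels, total RNA came from an RNeasy extraction and libraries from a NEBNext Ultra kit. The authors deposited raw whole-number counts for each Ensembl gene. The submitters' processing notes list STAR 2.7.9a, DESeq2 1.32.0, bcl2fastq 2.20.0.422 and GRCh38. How reads were counted, with or without strand and on which annotation release, is not given in the sources used here. A further 12 library columns of the table belong to none of these samples and stayed unused. Columns were matched to samples by cell line, construct and replicate number.

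Counts were filtered with filterByExpr (18771 of 60649 rows left), scaled by TMM and fitted with edgeR 4.0.16 (robust quasi-likelihood test, R 4.3.3), with Benjamini-Hochberg adjustment over all genes tested and an adjusted p under 0.05 as the call. The test was tested on simulated data. The common biological coefficient of variation was 0.118. The SE of a log2 fold change is its size divided by the square root of the edgeR F statistic. It therefore draws on the spread of other genes too, and not on the 2 libraries per group alone. CPM uses TMM library sizes. RPKM divides CPM by the length of 1 coding transcript per gene in GENCODE 29. Floors of 3 counts cover counting error alone, because reads lack molecular identifiers. Symbols came from a reference table (60507 rows matched) and positions from GENCODE 29 (58381 rows).

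Members and lists were chosen with earlier results of these data known. Named genes were the core subunits, the extremes of log2 fold change and the most abundant member of each complex, called members and isoform pairs. Some complex I subunit genes are not reported here. Other genes, including NDUFA5, NDUFA10, ATP5F1D, NDUFAF8, those of low level and the partner genes, were picked with their values in view. Alternatives were DESeq2 1.42.0, RLE factors, library totals, mitochondrially encoded genes or TINCR left out, 2 other filters on low counts, a replicate block, the legacy dispersion estimate, each library left out, and for the complexes NDUFA4 in complex I, every tested row of the rule, or summed CPM.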

Additional observations from a re-analysis of the deposited data

How the results depend on the processing

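Medians of the complexes stayed negative under each alternative that kept all 4 libraries. They moved there by less than the within-group SD of the median deviation of that complex. In complex I this SD was 0.065, while the within-group SD of its mean log2 CPM was only 0.0019. The SD of the mean was 0.052 in complex II, 0.107 in complex III, 0.135 in complex IV and 0.108 in complex V. In complex I, replicate differences of both signs offset each other in the mean, as with 1.07 for NDUFB8 and -0.41 for NDUFB11 with TINCR-HA-FLAG. With 1 library left out the medians ran from -0.19 to -0.0016 in complex I, -0.22 to 0.018 in complex II, -0.18 to 0.0030 in complex III, -0.19 to 0.057 in complex IV and -0.13 to 0.056 in complex V. Over all genes, DESeq2 called 109 higher and 44 lower, and without a filter on low counts edgeR called 47 higher and 6 lower, against 85 and 18. With a library left out, 69 to 226 genes were called higher and 45 to 160 lower, and 0 to 3 members. Without empty vector replicate 1 these were ATP5MC3 and ATP5F1D, without TINCR-HA-FLAG replicate 1 SDHA and NDUFAF8, and without TINCR-HA-FLAG replicate 2 ATP5MC3, NDUFA5 and ATP5F1D. The lone library is then assumed to vary like the other group.

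Replicate 1 minus replicate 2 correlated at 0.58 between the groups over 11876 genes. The labels name no shared batch, and whether samples with the same replicate number were handled together was not tested. With the replicate block, 1317 genes were called higher and 1316 lower, and 12 of 91 members (13.2%, against 14.0% of all genes). These were COX7A2L, NDUFA5 and COX6B1, higher, and ATP5MC3, NDUFS1, NDUFA10, SDHA, ATP5F1B, NDUFAF8, ATP5F1D, UQCRFS1 and COX7B, lower.

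The sign held in all 13 alternatives for 31 of 91 members. COX8A had -0.016 with DESeq2, -0.011 with RLE factors and -0.0076 with the replicate block, CYC1 2.3e-05 with library totals, and NDUFV1 0.014 with library totals and 0.0012 without a filter. With 1 library left out, log2 fold changes ranged across 0, from -0.11 to 0.15 for ATP5F1C, -0.10 to 0.53 for ATP5ME, -0.20 to 0.031 for COX4I1, -0.27 to 0.066 for COX5A, -0.18 to 0.030 for COX6A1, -0.0034 to 0.36 for COX6B1, -0.31 to 0.48 for COX6B2, -0.33 to 1.05 for COX7A1, -0.14 to 0.079 for COX7A2, -0.35 to 0.28 for COX8A, -0.25 to 0.18 for CYC1, -0.050 to 0.11 for NDUFA4, -0.44 to 0.11 for NDUFA4L2, -0.10 to 0.20 for NDUFS7, -0.31 to 0.086 for NDUFS8, -0.12 to 0.10 for NDUFV1, -0.25 to 0.046 for SDHB, -0.067 to 0.26 for SDHC, -0.23 to 0.046 for SDHD, -0.30 to 0.10 for UQCRC1, -0.18 to 0.0030 for UQCRH and -0.28 to 0.31 for UQCRHL. Others kept their sign but moved by over 1.5 times, from -0.32 to -0.0030 for NDUFS3, -0.47 to -0.045 for NDUFV2, -0.53 to -0.20 for NDUFS4, -0.43 to -0.11 for UQCRFS1 and -0.34 to -0.12 for ATP5F1B, among others. For these genes and alternatives the cause was not tested. Depth limits NDUFA7, NDUFB8 and NDUFA13, which had 3.20 CPM or less in every library.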
